A study of Mus musculus with 6 samples.

Results

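A panel of 35 genes of retinal neurogenesis and of young neurons was followed on 6 microarrays of mouse embryonic eye tissue, taken as a list of gene symbols that applies no threshold to the values. It holds 17 neurogenic factors, which are transcription factor genes that start or steer neuron formation, and 18 genes of axons, cytoskeleton and other neuronal proteins. A probe set is a group of array probes read as a unit, and 34 of the 35 genes had probe sets that name only them. Pou4f2, a retinal ganglion cell factor, was not named in the annotation used and was not analysed here. Where a gene had several, the brightest over the 6 arrays stood for it. Of the 34 genes, 20 reached a mean log2 value of 5 and were tested, among 12098 genes tested in all, and 14 lay below it.

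The arrays compare 3 pools from albino embryos with 3 pools from pigmented control embryos at embryonic day 13.5. Each pool held tissue of 3 to 4 littermates, labelled as retinal pigment epithelium (RPE), a pigmented sheet that lies behind and nourishes the neural retina. Neither strain nor albino allele is given in the labels. Their protocols describe an eyecup freed of lens, cornea, neural retina and outer tissue, while their sample descriptions speak of the region of the whole eye. Pools of a genotype are labelled as separate biological samples.

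In the embryonic retina, dividing progenitors leave the cell cycle and switch on basic helix-loop-helix (bHLH) factors, among which Atoh7 makes cells competent to become retinal ganglion cells. Later factors such as Pou4f1, Isl1 and Crx fix the neuron type, and newborn neurons then make the tubulins, neurofilaments, stathmins and adhesion proteins that build an axon. The RPE arises from the same optic vesicle but does not make neurons, and it keeps the neurogenic programme off.

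Markers read on the same arrays show what the pools held. All 10 RPE markers of a fixed list passed the level minimum, with array means of 10.43 to 10.61 in albino and 10.57 to 10.85 in pigmented pools. Neural retina progenitor markers were also present: 9 of 10 were named by the annotation and all 9 passed. Skeletal muscle markers passed in 12 of 12 cases, and the list mean was 8.83 to 9.57 for albino and 7.29 to 8.30 for pigmented arrays. The arrays numbered 1 stood apart from the other 4 on the first principal component, which held 68.9% of the variance. Of all genes tested, 68.8% read higher on the arrays numbered 1 than on the mean of the other 2 in both genotypes. In RNA from whole tissue, fewer cells of a type and less RNA per cell cannot be told apart.

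No member passed the threshold between the genotypes (limma, adjusted p under 0.05: 0 of 20 members). The same was true of the whole table, where 0.0% of the 12098 genes passed. At an unadjusted p under 0.05, 2 of the 20 members were found, Ebf3 and Ebf1, and both lay higher in albino pools. Over the whole array 4.79% of genes met that level. With the replicate number as a block, 5 of 20 members met it and 0 passed after adjustment (smallest adjusted p = 0.192, limma), beside 16.9% of all genes at the unadjusted level. The 20 members lay lower in albino pools in 11 cases and higher in 9, with a median difference of -0.01 on the log2 scale, while over all genes tested 35.2% lay lower and the median was 0.04.

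**Figure D1:**
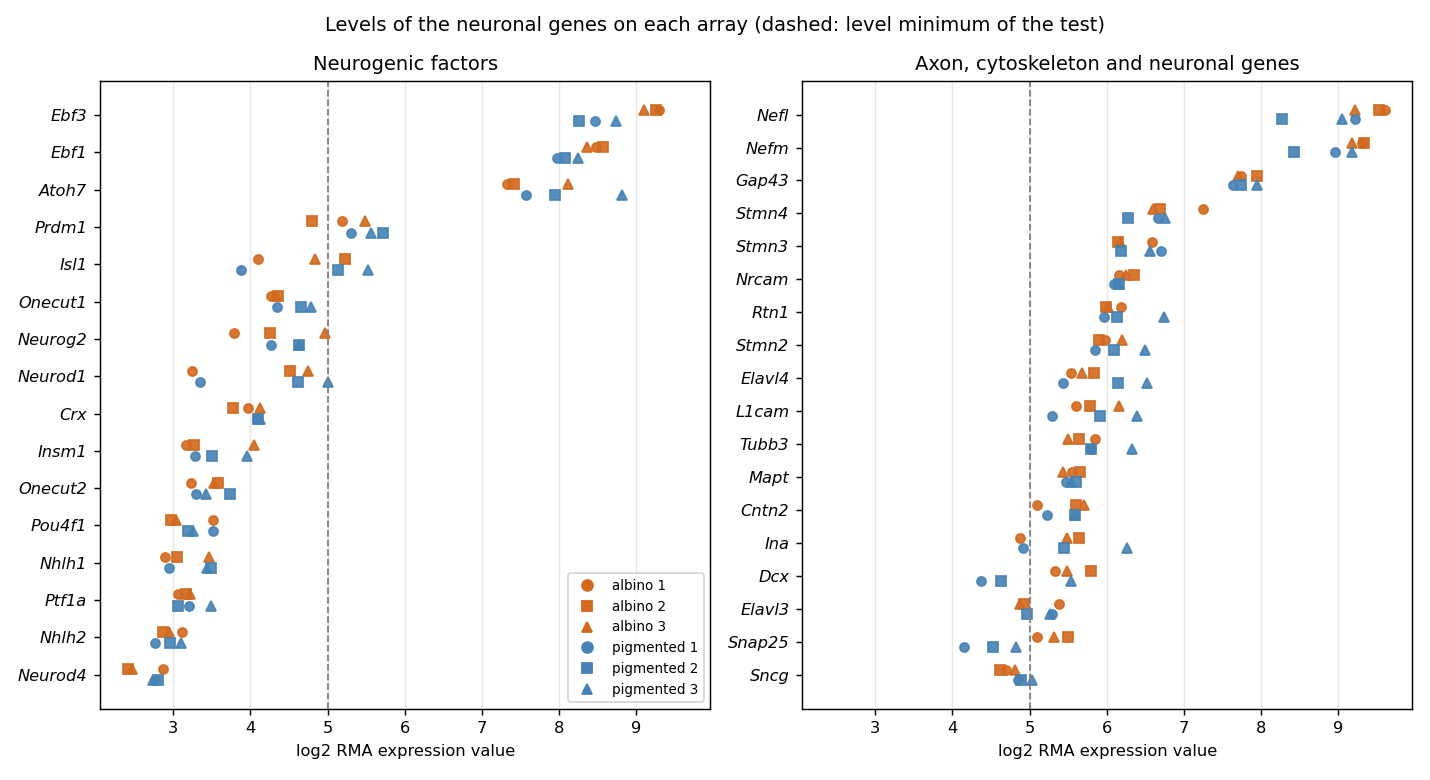
Log2 RMA expression value of each of the 34 measured genes on every array, with neurogenic factors on the left and axon, cytoskeleton and neuronal genes on the right. Colours give the genotype, symbols the replicate number and the dashed line the level minimum of 5; 12 of 16 neurogenic factors have their mean below it, against 2 of 18 neuronal genes.

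Most neurogenic factors were dim. Of the 16 factors with a probe set, 12 had a mean below 5 (2.67 to 4.79) and were not tested. They included the bHLH genes Neurod1, Neurod4, Neurog2, Nhlh1, Nhlh2 and Ptf1a, the zinc finger gene Insm1, the homeobox genes Pou4f1, Isl1 and Crx, and the cut-domain genes Onecut1 and Onecut2. In 11 of these 12 the albino mean was lower, with a median difference of -0.15. Among all 6095 genes below the minimum, 70.2% had a lower albino mean and the median was -0.08. The exception was Nhlh2, at 2.98 and 2.94. Values below the minimum were given no test. The brightest of the 12, Isl1, lay just under the array medians of 5.19 to 5.22.

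Neurod1, which drives photoreceptor and amacrine cell formation, read 3.25, 4.51 and 4.75 on the albino arrays 1, 2 and 3, against 3.35, 4.62 and 5.01 on the pigmented ones. The arrays numbered 1 were the low ones in both genotypes and the genotypes overlapped. A second Neurod1 probe set of nearly the same mean (4.20) did not share this: its arrays numbered 1 lay above the mean of the other 2 by 0.42 in albino and 0.23 in pigmented pools, and its genotype difference was -0.20 beside -0.16. Isl1, a LIM homeobox gene of ganglion, amacrine and bipolar cells, read 4.10, 5.23 and 4.84 in albino against 3.88, 5.14 and 5.52 in pigmented pools. The arrays numbered 1 were lowest and the difference was -0.12. On a second Isl1 probe set with nearly the same mean (4.77), albino replicate 1 was instead the highest albino array (4.89) and the difference was -0.29. Crx, the photoreceptor homeobox gene, stayed between 3.78 and 4.13 on all 6 arrays. Ptf1a, the factor of horizontal and amacrine cells, stayed between 3.06 and 3.49. Onecut1, a horizontal cell and ganglion cell factor, read 4.27, 4.36 and 4.33 in albino against 4.35, 4.66 and 4.78 in pigmented pools, and its dimmer probe set had the opposite sign (0.17). Means of the others in albino and pigmented pools were 2.58 and 2.77 for Neurod4, 4.34 and 4.51 for Neurog2, 3.17 and 3.32 for Pou4f1, and 3.49 and 3.58 for Insm1. For Onecut2 they were 3.45 and 3.49, and for Nhlh1 3.13 and 3.29.

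Atoh7, Prdm1, Ebf1 and Ebf3 were the 4 neurogenic factors bright enough to test. The first pair lay lower and the second pair higher in albino pools, so their median difference (0.0017) describes neither pair. Windows of 300 bases around the start sites of Atoh7, Ebf1 and Ebf3 are shown, as Atoh7 had the lowest difference of the tested members and the EBF genes the smallest unadjusted p-values.

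Each window runs from upstream of a start to just past it in the RefSeq table of build GRCm38.p6, which held 26 of the 35 genes and 2 starts for Ebf1. Capitals mark the E-box CANNTG, the letters bHLH factors bind, and CCCNNGGG, the paired half-sites known for EBF factors. Both motifs read alike on either strand, and no match of one overlapped the other. The windows are chr10:63099535-63099834 on the plus strand for Atoh7, chr11:44617850-44618149 and chr11:44619978-44620277 on the plus strand for Ebf1, and chr7:137314396-137314695 on the minus strand for Ebf3.
Atoh7: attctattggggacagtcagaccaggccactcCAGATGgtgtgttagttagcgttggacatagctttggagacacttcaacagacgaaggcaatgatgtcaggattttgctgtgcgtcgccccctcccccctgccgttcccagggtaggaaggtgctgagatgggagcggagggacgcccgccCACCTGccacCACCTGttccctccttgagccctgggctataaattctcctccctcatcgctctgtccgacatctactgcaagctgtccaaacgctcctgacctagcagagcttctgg
Ebf1 start 1: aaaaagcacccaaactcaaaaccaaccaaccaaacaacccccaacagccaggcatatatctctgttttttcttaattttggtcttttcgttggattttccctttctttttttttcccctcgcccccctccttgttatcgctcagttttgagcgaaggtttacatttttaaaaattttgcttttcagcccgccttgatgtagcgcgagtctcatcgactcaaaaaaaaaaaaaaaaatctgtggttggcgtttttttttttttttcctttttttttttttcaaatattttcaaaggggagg
Ebf1 start 2: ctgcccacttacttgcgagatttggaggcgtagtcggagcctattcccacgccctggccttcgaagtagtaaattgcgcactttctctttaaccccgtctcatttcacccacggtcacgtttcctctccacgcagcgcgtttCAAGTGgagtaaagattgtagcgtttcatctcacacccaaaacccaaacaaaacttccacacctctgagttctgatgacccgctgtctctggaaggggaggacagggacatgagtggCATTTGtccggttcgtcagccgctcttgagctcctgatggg
Ebf3: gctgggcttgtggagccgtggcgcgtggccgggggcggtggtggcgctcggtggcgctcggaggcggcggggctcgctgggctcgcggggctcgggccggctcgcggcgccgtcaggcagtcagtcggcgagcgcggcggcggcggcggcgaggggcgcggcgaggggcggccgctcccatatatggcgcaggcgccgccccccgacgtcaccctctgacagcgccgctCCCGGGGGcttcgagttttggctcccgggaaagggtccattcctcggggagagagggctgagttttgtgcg
The Atoh7 window held 3 E-boxes, at positions 33, 184 and 194 from its 5′ end, and no CCCNNGGG. The Ebf1 windows held 0 and 2 E-boxes, and the Ebf3 window held 0 E-boxes and 1 CCCNNGGG at position 230. Of the 32851 windows in the table, 72.3% held an E-box and 13.7% a CCCNNGGG, so these matches describe the letters and no binding was measured.

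Atoh7 stood at 7.32, 7.41 and 8.11 on the albino arrays, against 7.57, 7.95 and 8.82 on their pigmented counterparts. The albino value was the lower at each array number (-0.25, -0.54 and -0.71), but the genotypes overlapped and array 3 was the high one in both. Means were 7.61 ± 0.43 and 8.11 ± 0.64 (SD, n = 3 each), a difference of -0.50 with a 95% confidence interval of -1.35 to 0.35 (limma adjusted p = 0.999). The other Atoh7 probe set gave -0.30. With the replicate block the standard error (SE) of the difference was 0.10 and the limma adjusted p was 0.192. Without pigmented replicate 3 the difference was -0.15, and without pigmented replicate 1 it was -0.77.

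The mean of the neural retina progenitor markers also lay lower in albino pools at each array number. The list mean was 7.06, 7.31 and 7.62 in albino against 7.35, 7.59 and 7.82 in pigmented pools, and 8 of 9 markers had a negative difference. Rax, Six3, Six6, Sox2, Lhx2 and Fgf15 were lower at each number (6 of 9), while Pax6, Hes5 and Sfrp2 were not and had mean differences of -0.01, -0.02 and 0.04. The RPE list (10 of 10 markers lower, list difference -0.19) and the lens list (all 6 that passed, -0.73) lay lower in albino too. For lens, albino replicate 3 stood at 5.80 and the other arrays at 7.84 to 8.10. The periocular mesenchyme list differed by -0.07. Lists that lay higher were skeletal muscle (1.55), surface ectoderm (0.12), Schwann and crest glia (0.11) and peripheral ganglion neurons (0.08). Over all genes tested 35.2% lay lower in albino, and 13.0% did so at each array number. The part of the amount of retinal tissue in the Atoh7 difference was not tested.

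Prdm1, a zinc finger repressor gene that helps set photoreceptor against bipolar fate, read 5.19, 4.80 and 5.48 in albino against 5.31, 5.72 and 5.56 in pigmented pools. Albino replicate 2 was the low array, the genotypes overlapped, and the difference was -0.37 (SE 0.20, limma adjusted p = 0.999). Without albino replicate 2 it was -0.20.

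Ebf3 had the smallest unadjusted p of the panel (0.00163). EBF proteins are helix-loop-helix factors of neuronal differentiation and are also made outside the nervous system, in mesodermal tissues and, for Ebf1, in B lymphocytes. Ebf3 stood at 9.29, 9.25 and 9.10 in albino against 8.46, 8.26 and 8.74 in pigmented pools, with no overlap. Means were 9.21 ± 0.10 and 8.49 ± 0.24 (SD, n = 3 each), a difference of 0.73 or 1.65-fold with a 95% confidence interval of 0.39 to 1.07 (limma adjusted p = 0.556). Its other 2 probe sets gave 0.76 and 0.97.

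Ebf1 stood at 8.48, 8.57 and 8.36 in albino against 7.97, 8.07 and 8.24 in pigmented pools, again with no overlap. The difference was 0.38, or 1.30-fold, with a 95% confidence interval of 0.11 to 0.64 (limma adjusted p = 0.886). All 5 of its probe sets lay higher in albino pools, by 0.30 to 0.47, although only the brightest had genotypes that did not overlap. Over Ebf1 and Ebf3, 8 of 8 probe sets lay higher in albino pools, 3 of them without overlap. Probe sets of a gene read the same pools, so they are not independent. Of the 23591 probe sets tested, 35.6% lay lower in albino pools, and 7.39% lay higher there without overlap. Both Ebf1 and Ebf3 kept their direction under all 16 settings tried, at 0.31 to 0.45 for Ebf1 and 0.61 to 0.85 for Ebf3.

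Their relative Ebf2, on a list of other neurogenesis genes, lay higher too. It read 7.74, 7.09 and 7.00 in albino against 6.02, 5.26 and 6.05 in pigmented pools, a difference of 1.50 (SE 0.28, limma adjusted p = 0.507). Its 2 dimmer probe sets gave 1.34 and 0.53. The skeletal muscle markers lay higher in the same pools, in 12 of 12 cases. Their list mean was 9.54, 9.57 and 8.83 in albino against 7.69, 7.29 and 8.30 in pigmented pools. The order of the arrays within a genotype differed between the EBF probe sets. On the brightest ones, the lowest pigmented array was replicate 2 for Ebf2 and Ebf3, as for the muscle mean, and replicate 1 for Ebf1. Replicate 3 was the lowest albino and the highest pigmented array for Ebf1, Ebf2, Ebf3 and the muscle mean. The part of muscle or other mesodermal tissue in the EBF differences was not tested.

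**Figure D2:**
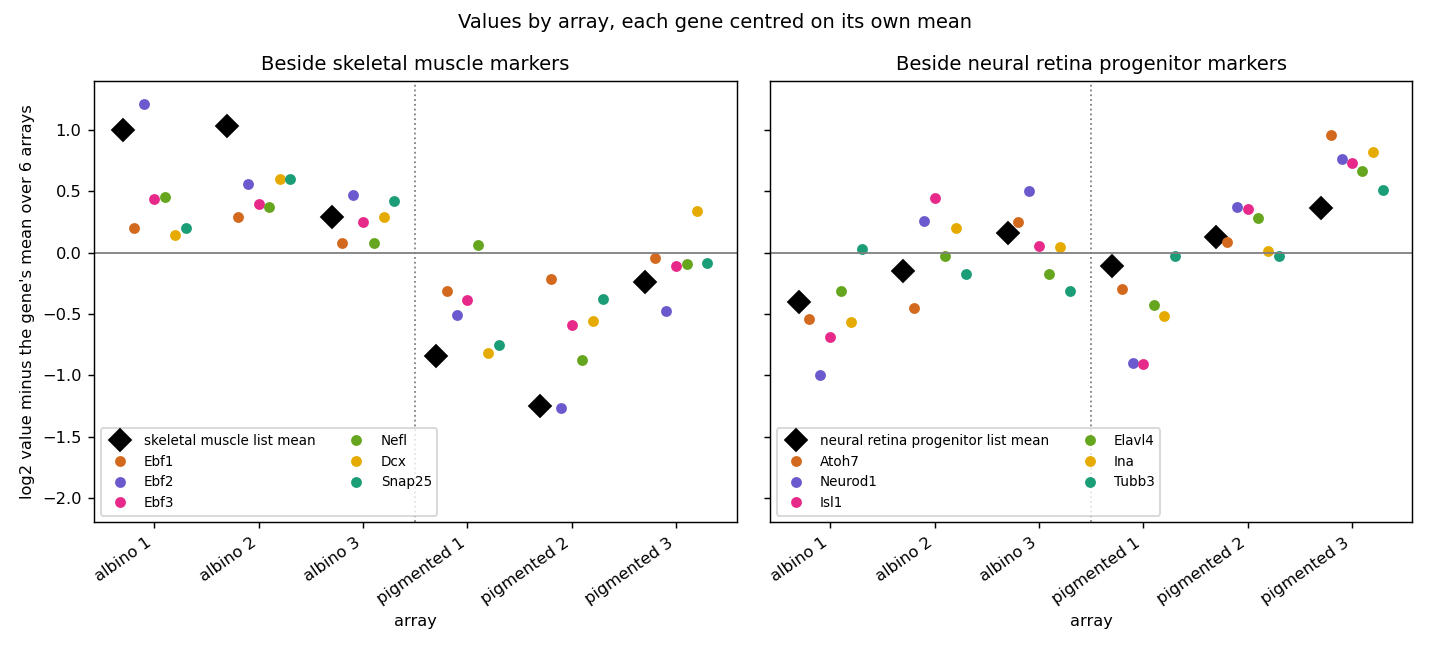
Log2 value of each gene, or of a marker list mean (diamonds), on every array, after subtracting its own mean over the 6 arrays. On the left, Ebf1, Ebf2, Ebf3, Nefl, Dcx and Snap25 lie above 0 on the albino arrays with the muscle mean. Nefl also lies above 0 on pigmented replicate 1, and Dcx on pigmented replicate 3. On the right, pigmented replicate 3 is the highest array for Atoh7, Neurod1, Isl1, Elavl4, Ina, Tubb3 and the progenitor mean.

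The neurofilament chain genes Nefl and Nefm lay higher in albino pools, though neither met an unadjusted p under 0.05 on its brightest probe set. Nefl, which encodes the light chain of the axonal intermediate filament, read 9.60, 9.52 and 9.22 in albino against 9.21, 8.27 and 9.05 in pigmented pools. The genotypes were separated by only 0.01, between albino replicate 3 and pigmented replicate 1. Means were 9.45 ± 0.20 and 8.84 ± 0.50 (SD, n = 3 each), a difference of 0.60 with a 95% confidence interval of -0.01 to 1.22 (limma adjusted p = 0.999). The other Nefl probe set gave 0.72 (limma unadjusted p = 0.0485). Its genotypes were not separated, with albino replicate 3 and pigmented replicate 1 both at 8.35. Pigmented replicate 2 was the low array, and without it the difference was 0.32.

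Nefm, the gene of the medium chain, read 9.31, 9.33 and 9.18 in albino against 8.95, 8.42 and 9.17 in pigmented pools. Its genotypes also met within 0.01, at the arrays numbered 3, and it differed by 0.43 (SE 0.19, limma adjusted p = 0.999). Without pigmented replicate 2 the Nefm difference was 0.21. With a covariate for the Y-linked genes, whose mean was 2.32 on pigmented replicate 2 and 5.98 to 7.99 on the other arrays, the values were 0.21 for Nefl and 0.16 for Nefm. Ina, which encodes the internexin partner of these chains, differed the other way. It read 4.87, 5.64 and 5.48 in albino against 4.92, 5.45 and 6.26 in pigmented pools, a difference of -0.21 (SE 0.36) that turned to 0.15 without pigmented replicate 3.

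Of the 20 tested members, 4 had genotypes that did not overlap, Ebf1, Ebf3, Nefl and Nefm, all higher in albino pools. Over the whole array 7.97% of genes did so in that direction and 3.38% in the other.

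Dcx and Snap25 also had higher means in albino pools. Dcx, which encodes doublecortin, a microtubule protein of migrating neurons, read 5.33, 5.79 and 5.48 in albino against 4.37, 4.63 and 5.53 in pigmented pools. Pigmented replicate 3 lay among the albino arrays, and the difference was 0.69 (SE 0.30, limma adjusted p = 0.999). It was 1.03 without pigmented replicate 3 and 0.45 without pigmented replicate 1. Of its 3 dimmer probe sets, 1 gave 0.48 and the others -0.05 and -0.15. With the replicate block Dcx and Nefl had unadjusted p-values of 0.0350 and 0.0366 in limma and adjusted values of 0.252 and 0.254.

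Snap25, a presynaptic membrane fusion gene, had a mean of 4.90 and was not tested. It read 5.10, 5.50 and 5.32 in albino against 4.15, 4.52 and 4.82 in pigmented pools, with no overlap and a difference of 0.81. Its dimmer probe set, with a mean of 2.40, gave 0.12 with overlap. The other gene of the neuronal group below the minimum, Sncg, which encodes the gamma-synuclein found in ganglion cells, read 4.69, 4.62 and 4.81 in albino against 4.85, 4.89 and 5.03 in pigmented pools. Those values did not overlap either, and the albino mean was lower by 0.22.

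**Figure D3:**
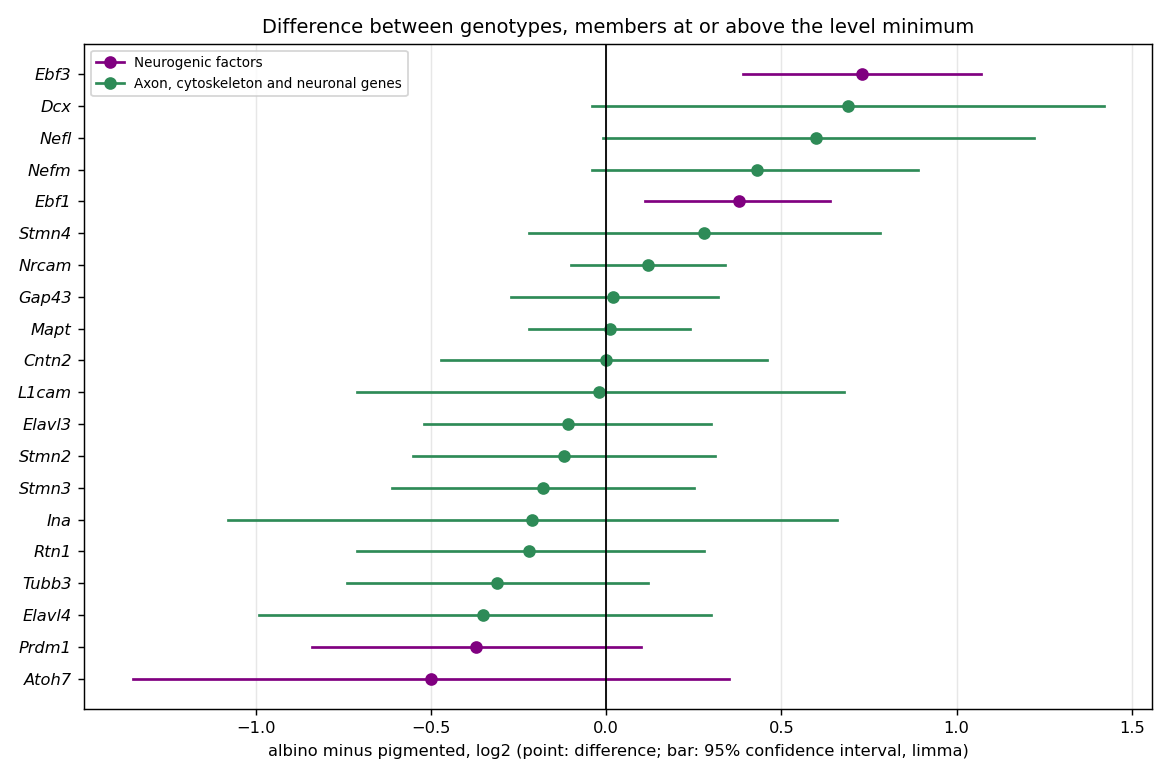
Albino minus pigmented difference (log2) of the 20 tested members, with the 95% confidence interval of the limma estimate, in order of size. Ebf3 and Ebf1 are the members whose interval lies wholly above 0, and no interval lies wholly below it.

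Elavl4, Elavl3 and Tubb3, which are switched on in newborn neurons, had lower means in albino pools, and none met an unadjusted p under 0.05. Elavl4, the gene of the neuronal RNA-binding protein HuD, read 5.54, 5.83 and 5.68 in albino against 5.43, 6.14 and 6.52 in pigmented pools. The pigmented arrays reached both below and above the albino ones, and the difference was -0.35 (SE 0.27). Its 2 other probe sets gave -0.11 and -0.29, and the value was -0.10 without pigmented replicate 3 and -0.65 without pigmented replicate 1. Elavl3, the gene of the related protein HuC, read 5.38, 4.93 and 4.87 in albino against 5.29, 4.96 and 5.26 in pigmented pools and differed by -0.11 (SE 0.17). The Elavl3 value was -0.27 without albino replicate 1 and -0.015 without albino replicate 3. Tubb3, the neuronal beta-tubulin gene, read 5.85, 5.64 and 5.50 in albino against 5.79, 5.79 and 6.33 in pigmented pools. Pigmented replicate 3 stood above all other arrays, and the Tubb3 difference of -0.31 (SE 0.18) became -0.13 without it.

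The stathmin genes, whose proteins bind free tubulin, did not share a direction. Stmn2, a growth cone member of the family, read 5.97, 5.90 and 6.20 in albino against 5.85, 6.09 and 6.49 in pigmented pools, a difference of -0.12 (SE 0.18) with overlap. Without pigmented replicate 3 its sign turned (0.053). Stmn3 differed by -0.18 (SE 0.18), which ran from -0.33 without pigmented replicate 2 to -0.07 without pigmented replicate 1 and was -0.41 with the Y-linked covariate. Stmn4 differed by 0.28 (SE 0.21). Stmn4 had its highest value on albino replicate 1 (7.24), and without that array the difference was 0.078.

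Gap43, Mapt, L1cam, Nrcam, Cntn2 and Rtn1 had intervals on both sides of 0, as had every other tested member except Ebf1 and Ebf3. Gap43, which encodes a growth cone membrane protein, read 7.74, 7.95 and 7.70 in albino against 7.63, 7.74 and 7.95 in pigmented pools, a difference of 0.02 with a 95% confidence interval of -0.27 to 0.32. Mapt, the tau gene, read 5.55, 5.65 and 5.43 against 5.47, 5.60 and 5.53, a difference of 0.01 (-0.22 to 0.24), though its 3 dimmer probe sets gave -0.25 to -0.12. The cell adhesion gene L1cam read 5.60, 5.78 and 6.16 against 5.29, 5.91 and 6.39 and differed by -0.02 (-0.71 to 0.68). The SD of L1cam was 0.29 in albino and 0.55 in pigmented pools, and its dimmer probe set gave 0.05. Nrcam, a relative of L1cam, read 6.16, 6.35 and 6.25 against 6.09, 6.16 and 6.16 and differed by 0.12 (-0.10 to 0.34), while its next probe set gave -0.08. Without albino replicate 2 the Nrcam difference was 0.068. Cntn2, a contactin on early axons, read 5.09, 5.60 and 5.70 against 5.22, 5.59 and 5.59, with means of 5.46 and 5.47. Its dimmer probe sets gave -0.24, -0.24 and 0.11. Rtn1, a reticulon gene of the neuronal endoplasmic reticulum, had a difference of -0.22 (SE 0.21), which became 0.015 without pigmented replicate 3 and -0.38 without pigmented replicate 1. For Gap43, Mapt, L1cam and Cntn2 the sign turned under other settings, given with the processing limits.

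Arrays that share a number differed unevenly across the panel. Among the 16 tested neuronal genes, 13 lay higher in albino at number 1 (median 0.11), 9 at number 2 (median 0.03) and 4 at number 3 (median -0.24). Over all genes the median was 0.04 at each of the 3 numbers. At number 3, 14 of the 20 members lay lower in albino, against 37.5% of all genes. Lower at every number were 3 members, Atoh7, Prdm1 and Stmn3, where 13.0% of all genes were, and higher at every number were 5, Ebf1, Ebf3, Nefl, Nefm and Nrcam, where 30.7% were.

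**Figure D4:**
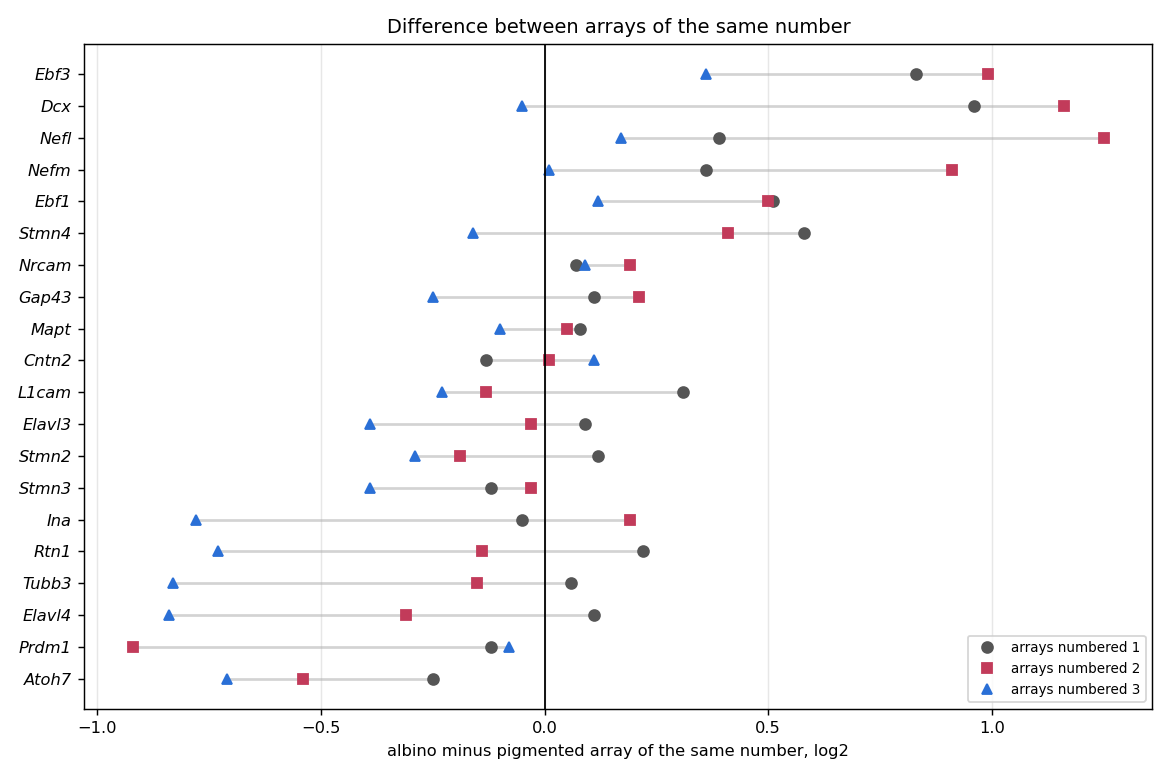
Difference between the albino and the pigmented array of the same number (log2) for each tested member, with grey bars spanning the 3 values. The blue triangles of the arrays numbered 3 lie below 0 for 14 of 20 members, down to -0.84 for Elavl4, and above 0 for both EBF genes.

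Pigmented replicate 3 was alone the highest of the 6 arrays for 7 of the 20 members, against 4.33% of all genes, a feature chosen after the values were seen. These were Atoh7, Elavl4, Stmn2, Tubb3, Ina, L1cam and Rtn1. The same array had the highest neural retina progenitor mean (7.82) and the highest lens mean (8.10), but not the highest mean of the other marker lists. The part of retinal or other tissue in these high values was not tested. Pigmented replicate 1 was alone the lowest array for 8 of the 20 members, against 10.9% of all genes, a feature also chosen after the values were seen. The arrays numbered 1 read lower than the mean of the other 2 in both genotypes for 9 members, against 14.7% of all genes. They read higher in both for 5 members, against 68.8% of all genes.

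Neither of the lists of related genes had a member past the threshold. Of 40 other neurogenesis genes, 37 were named and 21 tested, of which 8 lay lower and 13 higher, with a median of 0.06. At an unadjusted p under 0.05 in limma 5 of the 21 were found, all higher in albino. Over all genes tested 579 of 12098 met that level (4.79%), and 420 of these lay higher. The 3 listed genes with the smallest p were Ebf2, Gadd45g, a stress and differentiation gene (0.46, SE 0.11), and Rxrg, a retinoid receptor gene (0.41, SE 0.12). On the lower side the smallest p belonged to Tfap2b (-0.20, SE 0.12), the progenitor-associated gene Sox11 (-0.08, SE 0.11) and Otx2 (-0.09, SE 0.15), which RPE also makes. The Delta ligand gene Dll1, which neurogenic cells use to signal to their neighbours, differed by 0.16 (SE 0.11).

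Of 39 other neuronal genes, 38 were named and 24 tested, with 11 lower, 13 higher and a median of 0.015. None met an unadjusted p under 0.05. The largest was Map1b, a microtubule protein gene, at 8.64, 9.47 and 9.18 in albino against 7.41, 8.77 and 9.31 in pigmented pools, where pigmented replicate 1 was the low array. The genes with the smallest p were Map2 (0.27, SE 0.16), Uchl1 (0.24, SE 0.18) and Tubb2a (0.14, SE 0.11) on the higher side, and Syt4 (-0.12, SE 0.09), Crmp1 (-0.17, SE 0.15) and Tagln3 (-0.17, SE 0.15) on the lower.

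Markers of neurons and glia outside the retina were read in the same way. Of 14 markers of peripheral ganglion neurons, 11 were named and 9 of these lay below the level minimum, among them Prph, Phox2a, Th, Ret and Tlx3. The 2 that passed, the neurotrophin receptor gene Ntrk2 and Dbh, differed by 0.50 (SE 0.24) and -0.35 (SE 0.25), with array means of 7.40 to 8.00 in albino and 7.21 to 7.92 in pigmented pools. Schwann cell and crest glia markers passed in 6 of 6 named cases, with list means of 6.51 to 6.75 in albino and 6.43 to 6.57 in pigmented pools. Of these markers, 5 of 6 lay higher in albino, as did 7833 of the 12098 genes tested. Erbb3 differed by 0.35 (SE 0.13) and the others by -0.09 to 0.15. Array means of periocular mesenchyme markers were 11.02 to 11.17 and 11.07 to 11.28, those of surface ectoderm 8.24 to 8.74 and 8.29 to 8.42, and those of lens 5.80 to 7.99 and 7.84 to 8.10, in albino and pigmented pools.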

How the data were processed

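RNA was measured on 6 arrays, 3 pools per genotype. The authors deposited log2 values made by RMA in Affymetrix Expression Console 1.1, per the submitters' processing notes. RMA makes the distributions of the arrays alike, so each difference is measured against the rest of the array. Array medians lay between 5.19 and 5.22, and the number of arrays limits the precision.

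Of 45101 probe sets, 64 were controls. In the platform annotation 34945 named 1 gene, 932 several and 9160 none. Testing was limited to the 23591 probe sets, of 12098 genes, that were not controls and averaged at least 5. The fit used limma 3.58.1 under R 4.3.3 (lmFit, eBayes, two-sided), as albino minus pigmented, and p-values were adjusted by Benjamini-Hochberg over the 23591 probe sets, with a threshold of 0.05. Counts over genes use 1 probe set per gene. The fit was tested on simulated data. Every gene's p-value is from limma. Errors are SD over 3 arrays or the SE of the estimate.

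The members, the lists and the rule for naming genes were chosen with earlier results of these data known. Every member is named. Values of every array are given where genotypes did not overlap, where the difference was at least 0.3, where probe sets disagreed in sign, and for Atoh7, Neurod1, Isl1, Crx, Ptf1a, Stmn2, Tubb3, Nefl, Gap43 and Elavl3. The lists of related genes give up to 3 genes per direction, by smallest p. Dll1 and Map1b were picked with their values in view.

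Replicates are numbered 1 to 3 in both genotypes, and the labels do not say why. The reported fit used no pairing, and the replicate block was run as another setting. After subtracting each genotype mean, probe sets correlated at 0.863, 0.687 and 0.448 between arrays numbered 1, 2 and 3. Arrays numbered 2 and 3 also correlated across numbers, albino 2 with pigmented 3 at 0.693 and albino 3 with pigmented 2 at 0.546, so only number 1 stood apart.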

Additional observations from a re-analysis of the deposited data

How the results depend on the processing

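Under each of the 15 other settings 0 members and 0 probe sets passed the adjusted threshold in limma, with a smallest adjusted p of 0.0723 for any probe set when the arrays numbered 1 were blocked against the rest. The count of probe sets at an unadjusted p under 0.05, 1104 in the reported fit, was 4243 with the replicate block, 4952 with the arrays numbered 1 as a block, 3052 without them and 687 with the Y-linked covariate. It was 510 with probe sets averaged, where fewer features were tested, and 567 to 1418 with 1 array left out, lowest without pigmented replicate 2. The 4 members without overlap became 12 without both arrays numbered 1 (47.6% of all genes), where fewer arrays are compared, and 4 to 9 with 1 array left out (9 without albino replicate 1, 22.8% of all genes). After cyclic loess 3 members did not overlap, and with probe sets averaged, where fewer members were tested, 5 did not. The share over all genes was not computed for these settings. The median of the neurogenic factors moved between -0.084 and 0.15 with 1 array left out, highest without pigmented replicate 3. The replicate block changed no other call.

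Of the 20 tested members, 13 kept their sign under every setting that gave a value, and 7 turned. Cntn2 turned to 0.003 after median centring, 0.12 with the Y-linked covariate and 0.060 without both arrays numbered 1. Gap43 turned to -0.032 after cyclic loess and -0.020 without both arrays numbered 1, Mapt to -0.025 there and L1cam to 0.11 with the Y-linked covariate. With 1 array left out, values ran from -0.13 to 0.18 for Cntn2, -0.053 to 0.11 for Gap43, -0.043 to 0.067 for Mapt, -0.30 to 0.25 for L1cam, -0.53 to 0.15 for Ina, -0.27 to 0.053 for Stmn2 and -0.38 to 0.015 for Rtn1. The cause was not tested. With probe sets averaged, Elavl3, Ina, Dcx, Mapt, L1cam, Nrcam and Cntn2 fell below the level minimum and gave no value. Signal limits the 14 dim members, which have levels but no test.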
